A study of Mus musculus with 2 samples.

Results

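The enzymes that make prostaglandins and leukotrienes were examined gene by gene in sorted mouse brain microglia, as 10 genes named by symbol out of 55450 genes in the count tables: Pla2g4a, Ptgs1, Ptgs2, Ptges, Ptges3, Hpgds, Hpgd, Alox5, Alox5ap and Ltc4s. All 10 were present in the gene list under 1 identifier each. The mice were C57BL/6J, an inbred strain given as C57 under genotype, adult and male, with no transgene named in the labels. The awake group was 3 mice injected with normal saline, and the anesthesia group was 3 mice injected with 100 mg/kg sodium pentobarbital, a barbiturate. Brains were digested with collagenase IV and DNase I, and cells with CD11b and low CD45 on their surface were sorted and captured with a 10x 3' kit, which tags each RNA molecule near its 3' end with a unique molecular identifier (UMI). Each group is 1 library. How long the anesthetic acted, and whether the 3 brains of a group were pooled, is not given in the sources used here. Since no group has a second library, no difference here has a replicate check, a test or a p-value, every interval is a 95% interval for counting error only, and the drug, the mice and the handling of a library cannot be told apart.

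Both pathways start from arachidonic acid, a fatty acid held in membrane phospholipids. Cytosolic phospholipase A2 (Pla2g4a) releases it, the cyclooxygenases (Ptgs1, made at a steady level in many cells, and Ptgs2, an inducible form) turn it into prostaglandin H2, and terminal synthases make prostaglandin D2 (Hpgds) or E2 (Ptges, with Ptges3, a heat shock protein co-chaperone that also has this activity). Hpgd, 15-hydroxyprostaglandin dehydrogenase, starts the breakdown of prostaglandins. In the other branch 5-lipoxygenase (Alox5), helped by its activating protein (Alox5ap), makes leukotriene A4, and Ltc4s joins it to glutathione to give leukotriene C4. In the brain microglia are known as a source of prostaglandins, and the prostaglandin E2 of fever is made largely by endothelial cells of brain vessels through Ptgs2 and Ptges.

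The pair of cyclooxygenase genes is shown by the 250 bases before each annotated start, because these genes catalyse the same step and behaved differently between the libraries. The sequences are from RefSeq on GRCm38.p6, plus strand, at chr2:36230176-36230425 for Ptgs1 and chr1:150099781-150100030 for Ptgs2, and capitals mark the letters TTNNGNAA, a motif of the C/EBP factors.
Ptgs1: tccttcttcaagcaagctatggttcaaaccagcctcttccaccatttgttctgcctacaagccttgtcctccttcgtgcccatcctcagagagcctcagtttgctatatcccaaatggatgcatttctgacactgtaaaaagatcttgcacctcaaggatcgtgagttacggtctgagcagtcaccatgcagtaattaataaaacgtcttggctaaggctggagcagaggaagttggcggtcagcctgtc
Ptgs2: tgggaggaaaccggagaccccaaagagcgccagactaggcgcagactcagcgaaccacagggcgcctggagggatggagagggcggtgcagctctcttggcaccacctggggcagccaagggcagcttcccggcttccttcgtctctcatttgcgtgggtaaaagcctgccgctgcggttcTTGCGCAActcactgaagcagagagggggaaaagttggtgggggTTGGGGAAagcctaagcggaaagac
The Ptgs1 window had a GC content of 48% and the Ptgs2 window 61.6%. The motifs were searched on both strands. They were TATAA (TATA box, in 23.5% of 27025 RefSeq promoter windows of the same length), CACGTG (E-box, 6.05%), TGACG (cAMP response half-site, 17.9%), GGGCGG (GC box, 32.9%), CCAAT (34.5%), TTNNGNAA (36.9%), TGANTCA (AP-1, 6.87%) and the NF-kB motif (3.75%). The Ptgs2 window held TTNNGNAA at 69 bases before the start, where the letters read alike on both strands, and at 25 bases before it, and a GC box at 170 bases. The Ptgs1 window held none of them. TTNNGNAA was also in the windows of Ptges, Hpgds, Hpgd and Pla2g4a, and a GC box in those of Ptges, Ptges3, Hpgd and Alox5. Neither match was thus particular to Ptgs2. These are matches of letters only, in the 250 bases before the annotated start. Bases past that start were not searched, so a motif not found here is not shown to be absent from the promoter. Promoter windows were at hand for 9 of the 10 genes.

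The genes lie on several chromosomes of GRCm38. Ptgs2 (chr1:150100031-150108227, plus strand) and Pla2g4a (chr1:149829618-149961290, minus strand) are neighbours with a gap of 138.74 kb. No exon of the 10 genes overlaps an exon of another gene on the same strand in GENCODE M21. Exons of Ptgs1, Ltc4s and Alox5ap overlap those of Gm43621, Gm26542 and Gm19719 on the other strand, and how the authors' counting used strand is not given in the sources used here. Ptges3 has a pseudogene copy, Ptges3-ps, with 43 and 62 UMIs in the microglia-like cells.

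After filtering, 8223 awake and 8944 anesthesia cells remained, with medians per deposited barcode of 5883 and 5347 UMIs and of 1.45% and 2.26% mitochondrial UMIs. The 2 libraries shared 14 barcodes. Clustering gave 7423 awake and 8150 anesthesia microglia-like cells, in which all 10 microglial markers were seen (P2ry12 at 1805 and 1701 per 1e6 UMIs). The sort gate bears on how many other cells are present, so their numbers do not describe the brain. They were border macrophage-like (50 awake, 43 anesthesia), endothelial-like (113 and 123), choroid plexus or ependymal-like (41 and 83) and neutrophil-like (22 and 3). UMIs were summed over the cells of a class and scaled to counts per 1e6 UMIs (CPM), 48236440 and 56142675 UMIs in the microglia-like cells. A gene counted as measured from 200 UMIs over both libraries, and as higher or lower from 1.5-fold.

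In microglia-like cells Ptgs2 was the member that stood apart between the libraries. It had 652 UMIs or 13.5 CPM (12.5 to 14.6) in awake and 2018 UMIs or 35.9 CPM (34.4 to 37.5) in anesthesia microglia-like cells, 2.66-fold higher, which is a log2 ratio of 1.41 (1.28 to 1.54). Of 10 members 9 were measured. Among these 1 was higher, where 13.2% of the 11389 measured genes were higher, and 0 were lower, where 11.9% were. The share of members past 1.5-fold was thus not above the 25.1% of all measured genes, and the median log2 ratio of the 9 was -0.07 beside -0.02 for all of them. The Ptgs2 ratio lay beyond the 95th percentile of all genes, 0.93. All other measured members lay between the 5th percentile, -0.83, and that value.

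Ptgs1, the steady cyclooxygenase, was at 535 CPM (529 to 542) and 579 CPM (572 to 585), in the order awake and anesthesia kept from here on. Its log2 ratio was 0.11 (0.09 to 0.14), so the 2 cyclooxygenases, which share a step, parted in these libraries. Ptgs1 gave 25813 and 32483 UMIs, and Ptgs2 gave a small fraction of that in either library. Pla2g4a, the phospholipase that frees the substrate, was at 58.4 CPM (56.3 to 60.6) and 55.7 CPM (53.8 to 57.7), and its interval for the log2 ratio, -0.14 to 0.01, spans 0. The values are not divided by transcript length, since the kit counts 1 tag per molecule.

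Among the terminal prostaglandin synthases Hpgds was the abundant one. It was at 544 CPM (538 to 551) and 609 CPM (602 to 615), a log2 ratio of 0.16 that fell to 0.00 once the trend with GC content and length was removed. Ptges3 was at 175 CPM (171 to 179) and 178 CPM (174 to 181), a log2 ratio of 0.03 (-0.02 to 0.07) whose sign turned in 3 of 11 alternatives, TMM scaling among them. Ptges, the inducible prostaglandin E synthase, was at the edge of detection. It had 0 UMIs in the awake library, which allows up to 0.0622 CPM at 3 UMIs, and 7 UMIs or 0.125 CPM (0.0501 to 0.257) in the anesthesia library, at least 2.0-fold higher than that floor. So the D2 branch was seen in most microglia-like cells and the Ptges step in almost none at this depth.

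Hpgd, which degrades prostaglandins, and Ltc4s were the 2 members with the lowest ratios. Hpgd was at 446 CPM (440 to 452) and 301 CPM (296 to 305), a log2 ratio of -0.57 (-0.60 to -0.54). This is 1.48-fold lower, just inside the 1.5-fold threshold. Ltc4s was at 494 CPM (488 to 500) and 360 CPM (356 to 365), a log2 ratio of -0.45 (-0.48 to -0.43), which shrank to -0.21 once the trend on GC content and length was taken out. Both are abundant transcripts, so the counting intervals of the libraries lie far apart, but without replicates that says nothing of the spread between mice.

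The leukotriene branch upstream of Ltc4s differed less. Alox5ap was at 329 CPM (323 to 334) and 286 CPM (282 to 291), a log2 ratio of -0.20 (-0.23 to -0.17) that was 0.03 by the within-cluster ratio. Alox5, the lipoxygenase that it serves, was far scarcer, with 928 UMIs or 19.2 CPM (18.0 to 20.5) and 930 UMIs or 16.6 CPM (15.5 to 17.7). Its log2 ratio was -0.22 (-0.35 to -0.08). The 3 leukotriene genes thus all had a ratio under 0 in the pooled cells, each within 1.5-fold.

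**Figure D1:**
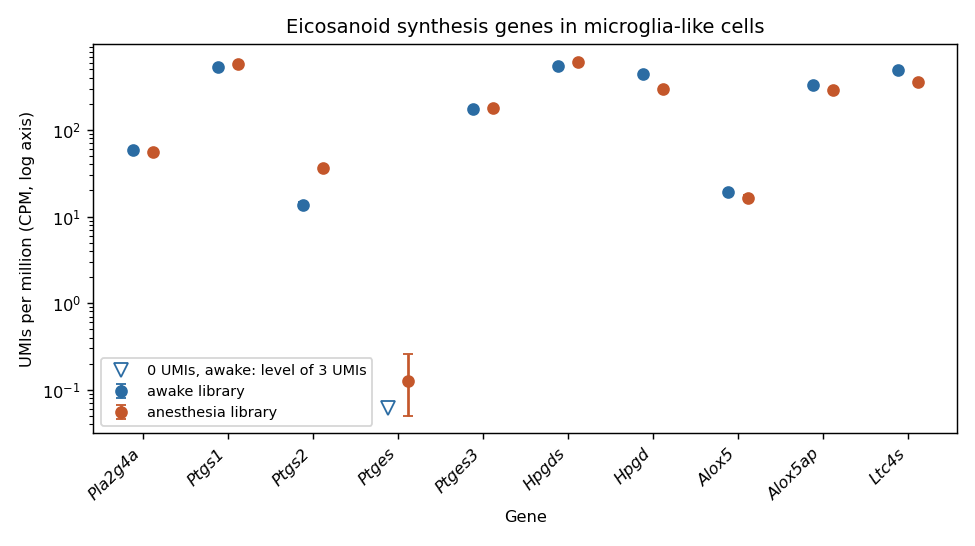
Level of each gene in microglia-like cells, in CPM on a log axis, for the awake and the anesthesia library (1 library each), with exact Poisson 95% intervals where they are wider than the point. Ptgs2 is at 13.5 and 35.9 CPM, while Ptges has no awake UMI (the triangle is the level of 3 UMIs) and is at 0.125 CPM in the anesthesia library.

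The share of cells with a UMI was compared at equal depth. Each cell was thinned to 2000 UMIs, leaving 7323 awake and 8052 anesthesia microglia-like cells (100 and 98 left out). A Ptgs2 UMI was found in 2.12% (1.80 to 2.47) of the awake and 4.56% (4.11 to 5.04) of the anesthesia cells, and without thinning in 5.07% and 10.0%. Ptgs2 was thus seen in few cells of either library. Hpgd was found in 56.1% and 41.7% of the thinned cells, and in 85.8% and 73.5% without thinning. Ltc4s was found in 58.4% and 49.3% of the thinned cells (86.2% and 80.8% without thinning). Ptgs1 was in 64.5% and 66.8% and Hpgds in 65.6% and 67.2%, which makes these transcripts of most microglia-like cells. Endothelial-like cells, which should lack Hpgds, had it in 6.60% of 106 awake and 24.1% of 112 anesthesia cells at the same thinned depth (medians before thinning of 5646 and 5142 UMIs, against 6011 and 5524.5 for microglia-like cells). If these cells make no Hpgds, those 2 shares give what free or carried RNA of Hpgds reaches in them. Such shares differ by gene, and P2ry12, a microglial marker, was in 23.6% and 35.7% of the same cells.

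Ptgs2 was unevenly spread over the microglia-like cells, more so than any other member. At 2000 UMIs per cell its variance over mean was 1.66 for awake and 2.09 for anesthesia cells. Genes within 20% of its mean had medians of 1.01 and 1.03 and 95th percentiles of 1.08 and 1.09. Of 1141 such genes 3 were above it in the awake library (Hbb-bs, Gm26870 and Gdf15), and of 1145 in the anesthesia library 2 were (Hbb-bs and Gdf15). A few cells therefore hold much of the Ptgs2 RNA. In the awake library 130 cells had 1 UMI, 19 had 2 and 6 had 3 or more. In the anesthesia library 257 had 1, 72 had 2 and 38 had 3 or more, up to 10 in 1 cell. Cells with 2 or more held 33.0% and 52.9% of all Ptgs2 UMIs. For Alox5, a member of similar scarcity, they held 4.84% and 4.0%, and its variance over mean was 1.01 in both libraries. The other measured members lay between 1.01 and 1.33.

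Cells with a Ptgs2 UMI had a Tnf UMI more often than cells without one, in each library. Tnf, a cytokine of activated microglia, was found in 60.6% (52.5 to 68.4) of the 155 awake cells with Ptgs2 and in 41.1% (39.9 to 42.2) of those without. In the anesthesia library it was in 80.7% (76.2 to 84.6) of 367 cells and in 65.5% (64.4 to 66.6). Il1b, another such cytokine, was in 27.8% (23.3 to 32.7) against 16.6% (15.8 to 17.5) of the anesthesia cells, while in the awake library the intervals overlapped, at 11% (6.52 to 17.0) against 7.03% (6.45 to 7.65). Ptgs1 and Ptgs2 showed no such link. Ptgs2 was found in 1.99% (1.61 to 2.43) of awake cells with Ptgs1 and 2.34% (1.80 to 3.00) of those without, and in 4.52% (3.98 to 5.11) and 4.64% (3.87 to 5.50) in the anesthesia library. These are descriptions over cells of 1 library, which are not replicates. The shares are pooled over microglia-like clusters, and the part of differences between clusters in them was not tested.

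The other members were found together about as often as their shares alone would give. Ltc4s was in 59.9% (58.3 to 61.6) of awake cells with Alox5ap and in 57.0% (55.4 to 58.6) of those without, and in 49.8% and 49.0% of the anesthesia cells. Alox5 was in 3.64% of awake cells with Alox5ap and 4.05% of those without, and in 3.40% and 2.77% of the anesthesia cells, with overlapping intervals in each library. Hpgds was in 65.0% (63.7 to 66.4) of awake cells with Ptgs1 and 66.7% (64.9 to 68.5) of those without, and in 68.0% (66.7 to 69.2) and 65.7% (63.9 to 67.5) of the anesthesia cells, so the small differences ran opposite ways. Ptgs2 and Ptges, the inducible pair, were never found in the same thinned cell, in 155 and 367 cells with Ptgs2. The exact 95% intervals for 0 reach 2.35% and 1.0%. Ptges itself was in only 0 awake and 2 anesthesia thinned cells, so this pair could hardly meet and nothing is read from it.

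Ptgs2 also differed between microglia-like clusters, which were built without the members. The 2 libraries lie largely in different clusters, so clusters 1 and 3 are almost all awake and clusters 0 and 2 almost all anesthesia. Awake Ptgs2 was at 6.59 CPM (5.6 to 7.70) in cluster 1, whose leading genes include Klf2 and Tsc22d3, and at 19.4 CPM (17.6 to 21.4) in cluster 3, led by genes such as Sbno2, Phlda1 and Socs3. Cluster 3 held 61.2% of the awake Ptgs2 UMIs. In the anesthesia library cluster 0, with Nr4a3, Il1b, Tnf and Cxcl2 among its leading genes, was at 46.4 CPM (44.2 to 48.7) and held 83.0% of the UMIs. Cluster 2, led by Gpr183 and Snhg6, was at 16.0 CPM (14.2 to 17.9). So each library had a cluster with high and one with low Ptgs2, and the low anesthesia cluster was not above the high awake one. Tnf was likewise higher in the cluster with more Ptgs2. Awake cells had it at 296 CPM in cluster 1 and 534 CPM in cluster 3. Anesthesia cells had it at 1124 CPM in cluster 0 and 534 CPM in cluster 2. The few awake cells in cluster 0 (76) had 12 Ptgs2 UMIs or 25.5 CPM (13.2 to 44.5). The log2 ratio within clusters was 0.60, against 1.41 over all microglia-like cells. It has no interval and leans on few Ptgs2 UMIs of the scarcer library. These were 12 and 5 awake UMIs in clusters 0 and 2, and 3 and 13 anesthesia UMIs in clusters 1 and 3. The direction was not the same in each cluster. In cluster 1 the anesthesia level, 4.84 CPM (0.999 to 14.2), was under the awake one. In clusters 0, 2 and 3 the anesthesia level was the higher one, at 46.4, 16.0 and 32.7 CPM against 25.5, 13.7 and 19.4 CPM. The intervals of the libraries overlapped in each of these clusters.

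Clusters 6 and 8 held cells of both libraries. In cluster 6 (257 awake and 65 anesthesia cells, led by Clec7a, Lgals3, Lpl and Apoe) Ptgs2 was at 32.1 CPM (25 to 40.6) and 33.0 CPM (18.5 to 54.5), with no difference between libraries detectable at this depth. In the interferon-response cluster 8 (101 and 120 cells, led by Ifit3 and Irf7) it was at 12.4 CPM (5.67 to 23.6) and 33.4 CPM (22.4 to 48.0). Several other enzymes were low in cluster 6. Hpgd was at 274 CPM (252 to 297) and 154 CPM (120 to 195) there, and Ltc4s at 303 CPM (280 to 327) and 196 CPM (157 to 241), the lowest of the 6 clusters in each library. Ptgs1 in cluster 6 was at 370 and 341 CPM, also the lowest of the 6 in each library. Ptges3 went the other way, at 195 and 200.4 CPM the highest of the 6 in each library, with intervals that overlap those of other clusters. Hpgd and Ltc4s were lower in the anesthesia library in each of the 6 clusters, with log2 ratios within clusters of -0.48 and -0.32.

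**Figure D2:**
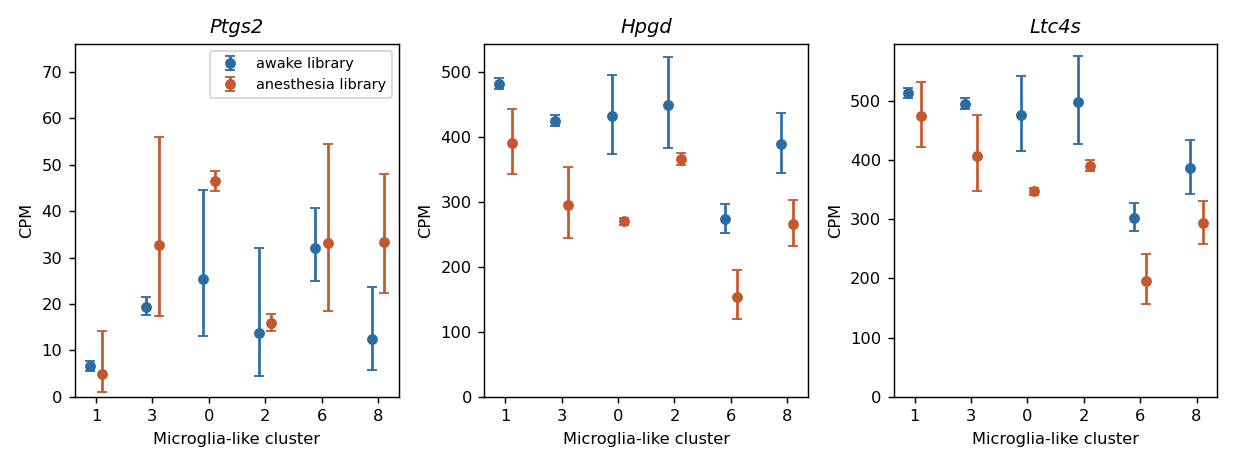
Level of Ptgs2, Hpgd and Ltc4s in CPM (linear axes) in the 6 microglia-like clusters, for the awake and the anesthesia library, with exact Poisson 95% intervals. Ptgs2 runs from 4.84 CPM in the 143 anesthesia cells of cluster 1 to 46.4 CPM in cluster 0, while the anesthesia points of Hpgd and Ltc4s lie under the awake points in each cluster.

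The Ptgs2 level differed between bins of cell depth, and its point values rose from bin to bin only in the awake library. In awake microglia-like cells of 1000 to under 5000 UMIs it was at 8.20 CPM (6.19 to 10.6), in those of 5000 to under 10000 at 13.9 CPM (12.6 to 15.2) and in deeper ones at 16.5 CPM (13.8 to 19.5). The anesthesia cells of the same bins were at 24.7, 40.8 and 36.4 CPM, so in each bin the anesthesia level was the higher one. Summed markers of other cell types were low in the microglia-like cells beside the 23263 and 20992 CPM of the microglial list. The summed 10 border macrophage markers were at 147 and 143 CPM, with 0 of them at 0 in either. The neutrophil markers were at 237 and 166 CPM and the endothelial ones at 66.4 and 53.1 CPM. B cell markers were at 236 and 209 CPM. Among the lists higher in the anesthesia library were those of choroid or ependymal cells (44.3 and 58.5 CPM), neurons (19.2 and 24.6), dendritic cells (10.9 and 14.3) and T and NK cells (0.166 and 1.05), and their part in the member ratios was not tested. Without the cells that carried 2 or more UMIs of border macrophage, neutrophil, platelet or endothelial markers, which left 1521 and 2750 cells, the log2 ratio of Ptgs2 was 1.77. This cut is a fixed number of UMIs, so it can fall more on deep cells, and it left out most cells of each library. The part of depth in the 1.77 was not tested.

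The rest of the pathway was read from a list of 92 other genes, of which 91 were in the files and 42 were measured. Of these 6 were higher and 9 lower in the anesthesia library, 35.7% past 1.5-fold beside 25.1% of all measured genes, and their median log2 ratio was -0.29 beside -0.02. Among genes that release arachidonate 0 of 9 were higher and 1 was lower, beside 13.2% and 11.9% of all measured genes. The groups are small, so 1 gene moves a group's share by much. That one was Pla2g15, a lysosomal phospholipase, at 216 and 115 CPM (log2 ratio -0.91). Abhd12, Daglb, Mgll and Abhd6, lipases of endocannabinoid and lysophospholipid turnover and the most abundant others of this group, were at log2 ratios of -0.40, -0.20, -0.32 and -0.28.

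Among genes that activate fatty acids such as arachidonate or put them back into phospholipids, 2 of 8 were higher and 1 lower. Of all measured genes 13.2% were higher and 11.9% lower. The group is not limited to genes specific for arachidonate. The higher ones were Acsl3 (4.81 and 13 CPM, log2 ratio 1.43) and Acsl4 (43.5 and 79.9 CPM, 0.88), acyl-CoA synthetases, Acsl4 with a preference for arachidonate. Lpcat1, a lysophospholipid acyltransferase, was the 1 lower, at -0.59. Lpcat2, the most abundant of the group with 788 and 711 CPM, was at -0.15, and Lpcat3, Mboat7 and Acsl1 were at -0.22, -0.34 and 0.40.

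Of 7 other prostanoid synthases 1 was higher and 1 lower, beside 13.2% and 11.9% of all measured genes. Cbr3, a carbonyl reductase, was at 10.2 and 16.6 CPM (0.71). Tbxas1, thromboxane A synthase, which uses the same cyclooxygenase product as Hpgds, was at 185 and 119 CPM (-0.64). Akr1b3, Cbr1, Fam213b (prostamide/prostaglandin F synthase) and Ptges2 were at 0.17, -0.22, -0.50 and -0.41.

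Of 4 measured genes of prostanoid breakdown and transport 3 were lower and 0 higher, beside 11.9% and 13.2% of all measured genes. Ptgr1 and Ptgr2, prostaglandin reductases that act after Hpgd, were at -0.61 and -0.80, and Cbr4, a carbonyl reductase, at -0.70. The remaining gene, Abcc4, an exporter of prostaglandins, was at 0.27 (-0.03 to 0.57). The levels were low, between 7.5 and 29.2 CPM for the 3 that were lower.

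In the lipoxygenase and leukotriene group 1 of 9 was higher and 2 were lower, beside 13.2% and 11.9% of all measured genes. Abcc1, which exports leukotriene C4, was at 13.2 and 24.1 CPM (0.87). Mgst3, a microsomal glutathione transferase related to Ltc4s, was at 15.9 and 9.76 CPM (-0.70), and Gpx4, which reduces lipid hydroperoxides, at 152 and 89.8 CPM (-0.76). Cotl1, a binding partner of 5-lipoxygenase, Dicer1, Ggt5 and Cyp4f13 were at -0.32, 0.47, -0.32 and 0.16. Lta4h, which makes leukotriene B4, was at 25.2 and 31.0 CPM (0.30). Of 5 measured receptors 2 were higher and 1 lower, beside the same 13.2% and 11.9%. Ptger4 and Ptger1, receptors of prostaglandin E2, were at 8.29 and 17.9 CPM (1.11) and at 2.05 and 3.83 CPM (0.90). Cysltr1, a receptor of cysteinyl leukotrienes such as leukotriene C4, was at 75.3 and 45.9 CPM (-0.71). Cmklr1, a chemerin receptor, and Ptger3, another prostaglandin E2 receptor, were at -0.31 and -0.57.

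**Figure D3:**
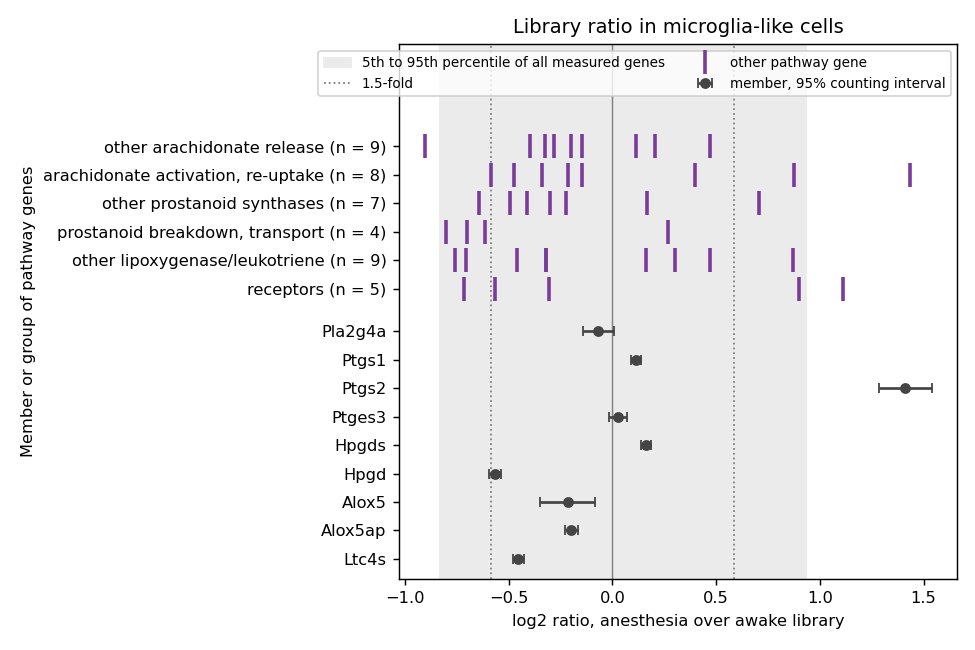
Log2 ratio of the anesthesia over the awake library in microglia-like cells for the 9 measured members (points, with 95% counting intervals) and the 42 other measured pathway genes by group (ticks); the grey band spans the 5th to 95th percentile of all measured genes, -0.83 to 0.93. Ptgs2 at 1.41 is the one member outside the band, and Hpgd at -0.57 lies next to the dotted 1.5-fold line.

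Cells of other classes carry microglial RNA, either free RNA or cells caught together, and this sets what can be read from them. Tmem119, P2ry12, Siglech and Sall1, which mark microglia, reached 17.5% and 42.2% of their microglial level in the awake and anesthesia endothelial-like cells. In the border macrophage-like cells they reached 50.5% and 86.8%, and in the choroid or ependymal-like cells 35.2% and 47.2%. A member found at about these shares of its microglial level is not shown to be made in the class, and the shares themselves differ between the libraries.

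In endothelial-like cells 5 of the 6 members tested were lower than in microglia-like cells by at least 1.5-fold in both libraries, where 22.4% of 3440 genes were, and 0 were higher, where 20.3% were. The 5 were Ptgs1, Hpgds, Hpgd, Ltc4s and Alox5ap. Ptgs1 stood at 20.8% and 44.4% of its microglial level, Hpgds at 17.3% and 51.4%, Hpgd at 16.0% and 39.9%, Ltc4s at 20.8% and 46.3% and Alox5ap at 19.6% and 43.6%. These shares lie near those of the microglial marker genes in the same cells. The sixth, Ptges3, was at 151 CPM (124 to 183) and 178 CPM (150 to 209), close to its microglial level.

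Ptges was seen in endothelial-like cells at a level far above that of microglia-like cells. Its 22 awake UMIs gave 31.4 CPM (19.7 to 47.6) and its 18 anesthesia UMIs 21.6 CPM (12.8 to 34.1). Over the 48236440 awake UMIs of microglia-like cells it had 0, so the endothelial level was at least 505-fold higher than the level of 3 UMIs there, and in the anesthesia library it was 173-fold higher than the microglial level. Border macrophage-like cells had 0 and 1 Ptges UMIs, and choroid or ependymal-like cells 0 in both libraries, which allows up to 9.33 and 5.07 CPM. The 22 awake neutrophil-like cells had 2, or 6.45 CPM (0.781 to 23.3), an interval that overlaps the endothelial one. Ptgs2 was at 14 UMIs or 20 CPM (10.9 to 33.5) and 28 UMIs or 33.6 CPM (22.3 to 48.6) in endothelial-like cells, above the 2.36 and 15.2 CPM that carried microglial RNA would give. Both genes of the inducible E2 route were thus seen in this class, while microglia-like cells had Ptgs2 and almost no Ptges. Neither gene differed between the libraries beyond counting error there, with log2 ratio intervals of -0.22 to 1.79 for Ptgs2 and -1.52 to 0.43 for Ptges. Pla2g4a was at 37.1 CPM (24.2 to 54.4) and 28.8 CPM (18.4 to 42.8), 63.5% and 51.7% of its microglial level.

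Between the libraries 3 of 4 measured members were higher in the anesthesia endothelial-like cells, where 19.7% of 1299 genes were higher, and 0 were lower, where 15.9% were. Ptgs1 went from 111 to 257 CPM, Hpgds from 94.2 to 313 CPM and Ltc4s from 103 to 167 CPM. The microglial markers in these cells moved the same way, from 17.5% to 42.2% of their microglial level. The levels that this carried RNA alone would give were 93.4 and 244 CPM for Ptgs1, 95 and 257 CPM for Hpgds and 86.2 and 152 CPM for Ltc4s. The anesthesia intervals of Ptgs1 (223 to 294) and Ltc4s (140 to 197) hold these levels. That of Hpgds (276 to 354) lies above its 257 CPM, a level that rests on the markers summed. Taken singly, the markers ranged there from 38.7% (P2ry12) to 51.6% (Sall1) of their microglial level. Hpgds, at 51.4%, was within that range, and the source of its distance from 257 CPM was not tested.

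The cluster of border macrophage-like cells had Ms4a7, F13a1, Lyve1, Pf4 and Cd163 among its leading genes. F13a1, Pf4 and Ms4a7 were also among those of each sub-cluster kept, while Cd163 was not. In border macrophage-like cells 0 of 7 members tested were higher than in microglia-like cells, where 2.25% of 3241 genes were. Lower were 0, where 0.123% of these genes were. Few genes of any kind parted these classes, which share most of their RNA here. Ptgs1 was at 390 CPM (332 to 455) and 516 CPM (468 to 567), Hpgds at 446 CPM (384 to 515) and 633 CPM (580 to 689) and Alox5ap at 366 CPM (310 to 429) and 292 CPM (257 to 331). In the anesthesia library the median cell had 14402 UMIs against 7199.5 in the awake library, and the observed levels of the 7 tested members were between 1.0 (Hpgd) and 1.2 (Hpgds) times what carried RNA would give. In the awake library they were between 1.45 (Ptgs1) and 2.21 (Alox5ap) times that level.

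Between the libraries Hpgd was the member with the lowest ratio in border macrophage-like cells. It was at 465 CPM (402 to 536) and 261 CPM (228 to 298), a log2 ratio of -0.83 (-1.12 to -0.55). It was the 1 of 6 measured members that was lower, where 8.66% of 981 genes were lower, and 0 were higher, where 19% were. Ltc4s was at 516 CPM (449 to 591) and 359 CPM (320 to 402), log2 ratio -0.52. Both rest on the removal of the neutrophil-like and dividing sub-clusters, a step added after seeing the data. With these kept, Hpgd was at 307 and 246 CPM, which is under 1.5-fold, and Ltc4s at 335 and 359 CPM, so its direction turned. Ptgs2 had 5 and 42 UMIs, 12.1 CPM (3.94 to 28.3) and 50.1 CPM (36.1 to 67.8), a log2 ratio of 2.05 (0.71 to 3.74) that is below the minimum of UMIs. Since carried microglial RNA was at 50.5% and 86.8% in these cells, the share of this that comes from the macrophages was not tested.

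Ltc4s set the cells of the choroid plexus or ependymal-like class, with Ttr, Enpp2 and Folr1 as leading genes, apart from the endothelial-like ones. It was at 482 CPM (409 to 564) and 304 CPM (261 to 352) there, 97.6% and 84.4% of its microglial level, where carried RNA would give 174 and 170 CPM. Of 6 members tested against microglia-like cells 0 were higher, where 17.1% of 3117 genes were, and 4 were lower, where 38.8% were. Those 4, Ptgs1, Hpgds, Hpgd and Alox5ap, had between 30% and 47.3% of their microglial level, near the 35.2% and 47.2% of the markers. Between the libraries Ltc4s was the 1 of 3 measured members that was lower there (log2 ratio -0.66), where 2.18% of 596 genes were lower, and 0 were higher, where 14.1% were. Ptgs2 was at 5 and 35 UMIs, 15.5 CPM (5.05 to 36.3) and 59.1 CPM (41.2 to 82.2), where carried RNA would give 4.75 and 16.9 CPM. Ptgs2 above the carried level was thus not particular to endothelial-like cells.

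**Figure D4:**
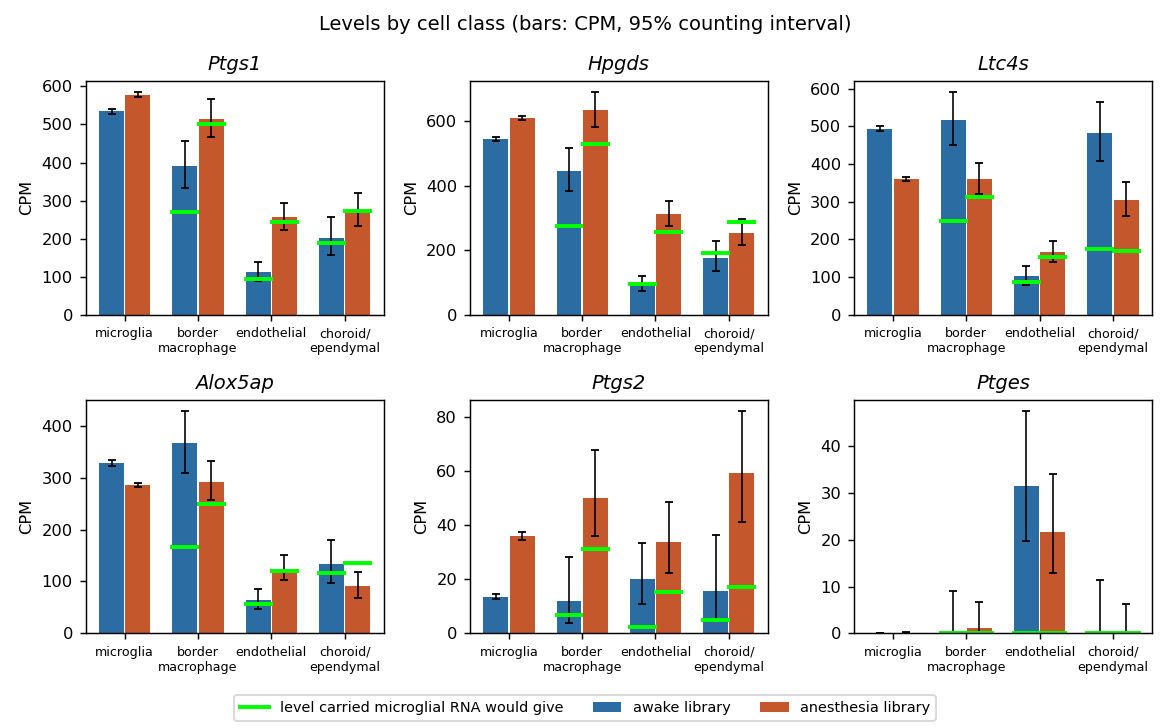
Level of 6 members in CPM (linear axes from 0) in 4 cell classes, for the awake and the anesthesia library, with exact Poisson 95% intervals; green lines give the level that carried microglial RNA alone would give. Ptgs1, Hpgds and Alox5ap bars sit near the green lines in endothelial-like cells, the Ltc4s bars stand above them in choroid or ependymal-like cells (482 against 174 CPM, awake), and Ptges is seen at 31.4 and 21.6 CPM in endothelial-like cells.

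The 22 awake neutrophil-like cells had the highest Alox5ap and Alox5 levels of the named classes. Alox5ap was at 271 UMIs or 874 CPM (773 to 984) and Alox5 at 26 UMIs or 83.8 CPM (54.8 to 123), against 329 and 19.2 CPM in awake microglia-like cells. Ltc4s, in contrast, was at 119 CPM, under its microglial level of 494 CPM. Neutrophils are known to make leukotriene B4 through these genes without need of Ltc4s. The anesthesia library had 3 such cells, too few for a level.

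Across the 4 classes and 2 libraries, 8 points that share libraries and carried RNA, the measured genes whose log2(CPM + 1) ran most like each member were as follows. For Ptgs2 they were Arrdc3, 1810022K09Rik and Wbp11 (Pearson r 0.94, 0.94 and 0.93). For Ptgs1 they were Ly86, Ctss and Laptm5, with r of 0.998, 0.997 and 0.997, and for Hpgd Arhgdib, Aif1 and Cd68 (0.99 each). Hpgds ran with Dennd4a, Ifitm10 and Rab10os (0.99 each), Alox5ap with H2-DMa, Rab3il1 and Gm43775 (0.99 each) and Alox5 with Nfatc2, Fkbp15 and Plcg2 (0.98 each). Ltc4s ran with Pqlc2, Kcnip3 and Trf (0.98, 0.97 and 0.97), Ptges3 with Zfat, Fam168a and B130006D01Rik (0.97, 0.96 and 0.96) and Pla2g4a with Oser1 and Ubn1 (0.995 and 0.993). Several of these are general markers of myeloid cells, as Ctss, Laptm5, Aif1 and Cd68 are, and with so few points the likeness describes these libraries only.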

How the data were processed

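The deposited files are UMI counts per gene and barcode, 1 sparse matrix per library, not normalized. Per the submitters' processing notes, bcl2fastq and Cell Ranger 3.1.0 were used with GRCm38, and the matrix headers name cellranger 4.0.0, per the file headers. The lowest deposited barcode held 501 UMIs.

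Cells with a minimum of 500 genes and 1000 UMIs and a maximum of 10% mitochondrial UMIs were clustered with scanpy 1.11.5 and leidenalg 0.10.2 (2000 variable genes, 30 components, 15 neighbours, resolution 0.6). The members, the other pathway genes, early response genes, mitochondrial, ribosomal protein and hemoglobin genes did not enter the variable genes. An "X-like" name rests on 10 markers per class, for 15 classes. For microglia 7 of the 10 had to be seen in 25% of cells with at most 1 leading marker of another class, and other classes needed 3 markers among their 10 leading genes. The border macrophage-like cluster was clustered again and its neutrophil-like and dividing cells left out, a step added after seeing the data. No doublets were removed. An alternative left out the highest 8% of doublet scores. Clusters with no name, 6.98% and 6.06% of the cells, are not used.

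Summed counts have exact Poisson intervals, ratios exact conditional binomial intervals and shares exact Clopper-Pearson intervals. A class contrast needed a mean of 50 CPM and 1.5-fold the same way in both libraries. The within-cluster ratio is a Mantel-Haenszel ratio over microglia-like clusters. Carried microglial RNA is the level of Tmem119, P2ry12, Siglech and Sall1 in a class as a share of their microglial level, times a member's microglial level. Named genes were all members, each other pathway gene past 1.5-fold and up to 4 more per group by UMIs, and the 3 genes most alike each member, of which 1 is not reported here. Lta4h, the genes named as leading a cluster and those more unevenly spread than Ptgs2 were chosen after their values were seen. The members and lists were chosen with earlier results of these data known. Of the list, Prxl2b was matched as Fam213b and 1 symbol was not matched and is not analysed here. edgeR 4.0.16 gave the TMM factors of 1 alternative. Ratios and intervals were tested on simulated Poisson counts, the model that the intervals assume. That could not show the effect of uneven spread over cells, as Ptgs2 has (variance over mean 1.66 and 2.09).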

Additional observations from a re-analysis of the deposited data

How the results depend on the processing

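Over 11 alternatives of scaling, cell filters, clustering, weighting and GC content, Ptgs1, Ptgs2, Hpgd, Ltc4s, Alox5 and Pla2g4a kept the sign of their log2 ratio in microglia-like cells. Ptgs2 ran from 0.60 (within clusters) to 1.77, Hpgd from -0.66 to -0.48 and Ltc4s from -0.55 to -0.21. Ptges3 turned sign in 3, Hpgds once the trend on GC and length was taken out (0.00) and Alox5ap within clusters (0.03), where the median of the members was 0.03. TMM moved the median of all genes to -0.11, with 10.4% higher and 16.1% lower. Members lower went from 0 to 1 (Hpgd) with TMM and with the GC trend removed, and members higher from 1 to 2 (Ptges) with no minimum of UMIs. Other pathway genes higher went from 6 to 24 and lower from 9 to 15 with no minimum, where fewer UMIs per gene are needed, and to 2 and 0 at a 2-fold call. Members higher in endothelial-like cells went from 0 to 1 (Ptges) with no minimum CPM. Members lower in border macrophage-like cells went from 0 to 7 with carried RNA subtracted, which follows from taking 50.5% and 86.8% of the microglial level off each gene and is no measure of these members. That class was not obtained at resolution 0.3. For the other changes the cause was not tested. Depth limits Ptges, Ptgs2 and Alox5 in the small classes. No paired analysis was possible because each group has 1 library and no result comes from a test.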
